A study of Mus musculus with 2 samples.

Results

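Microcephalin (Mcph1) and the 8 subunits of the condensin complexes were followed in the embryonic mouse lens at E12.5. The 9 genes were chosen by name: every probe whose platform gene symbol was exactly Mcph1, Smc2, Smc4, Ncapd2, Ncapd3, Ncapg, Ncapg2, Ncaph or Ncaph2 was taken, which gave 26 of 45281 probes and 9 of 19057 named genes. The group was drawn up with the difference between epithelium and fibers in these arrays already known, so its fibers over epithelium values are a description and carry no test. The study holds 2 samples of wild-type lens, lens epithelium and lens fibers, with 1 array each, both at age E12.5. Total RNA of each was labelled with biotin and hybridised to a 1-colour Illumina expression array. The labels name no strain and no number of embryos, and do not say how the epithelium was parted from the fibers. The design asks how expression in the epithelium differs from that in the fiber cells.

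Condensins are ring-shaped complexes that fold chromosomes into compact rods before cell division. The SMC subunits Smc2 and Smc4 form the ATP-driven core of condensin I and of condensin II alike, and each complex adds its own kleisin, which closes the ring, and its own pair of HEAT-repeat subunits. MCPH1 is a BRCT-domain protein that holds condensin II back outside mitosis, and its loss in people gives primary microcephaly with prematurely condensed chromosomes. In the lens, the cells of the epithelium divide, whereas fiber cells leave the cell cycle, elongate and later lose their nuclei.

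The promoters of the condensin subunits are shown first, since cell cycle genes are known for short promoter elements that the letters let a reader find. RefSeq promoter entries (build GRCm38.p6, 250 bases before to 50 after the start site) were found for 7 of the 9 members, with 8 promoters in all because Ncapd3 has 2 start sites, and were not found for Mcph1 and Smc4. The searched letters, on either strand, were TTTCGCGC, TTTGGCGC, TTTCCCGC or TTTGCCGC for E2F, TTTGAA or TTCGAA for the cell cycle homology region (CHR), and CCAAT for the CCAAT box. These motifs share no overlapping match in the promoters printed here. Printed are both HEAT-repeat subunits of condensin I, Ncapg (chr5:45669675-45669974, plus strand) and Ncapd2 (chr6:125191537-125191836, minus strand), and 2 subunits of condensin II, Ncapg2 (chr12:116405186-116405485, plus strand) and Ncaph2 (chr15:89355469-89355768, plus strand). Ncapg and Ncaph2 are the only condensin subunits whose array values gave a direction below, and Ncapd2 and Ncapg2 are shown for their motif matches. Each runs 5′ to 3′ along its gene, with every motif match in capitals.
Ncapg: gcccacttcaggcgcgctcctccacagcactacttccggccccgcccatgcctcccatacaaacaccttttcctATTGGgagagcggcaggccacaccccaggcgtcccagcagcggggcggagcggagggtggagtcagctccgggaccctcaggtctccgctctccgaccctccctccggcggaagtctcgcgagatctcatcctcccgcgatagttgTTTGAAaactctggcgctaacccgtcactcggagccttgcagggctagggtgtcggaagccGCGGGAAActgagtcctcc
Ncapd2: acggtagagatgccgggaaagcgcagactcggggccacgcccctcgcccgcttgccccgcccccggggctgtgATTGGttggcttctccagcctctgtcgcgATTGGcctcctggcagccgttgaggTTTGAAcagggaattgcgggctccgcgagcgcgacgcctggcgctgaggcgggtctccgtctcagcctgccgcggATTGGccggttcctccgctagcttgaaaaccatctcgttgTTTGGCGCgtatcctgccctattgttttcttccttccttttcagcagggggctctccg
Ncapg2: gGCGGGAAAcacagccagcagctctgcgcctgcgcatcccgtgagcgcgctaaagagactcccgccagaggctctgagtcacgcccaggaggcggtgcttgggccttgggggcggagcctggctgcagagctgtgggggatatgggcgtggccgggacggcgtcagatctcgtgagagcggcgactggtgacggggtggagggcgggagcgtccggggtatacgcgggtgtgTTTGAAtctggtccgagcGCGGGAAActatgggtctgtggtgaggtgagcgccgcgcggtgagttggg
Ncaph2: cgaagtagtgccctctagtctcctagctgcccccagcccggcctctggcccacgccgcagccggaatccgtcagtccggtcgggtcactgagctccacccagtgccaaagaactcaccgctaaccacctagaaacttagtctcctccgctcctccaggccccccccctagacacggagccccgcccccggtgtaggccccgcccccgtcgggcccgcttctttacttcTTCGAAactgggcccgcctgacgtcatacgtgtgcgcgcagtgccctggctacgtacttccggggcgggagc

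A CHR match was present in 6 of the 8 promoters, against 19.2% of all 32851 promoters in the table. In Ncapg it lay from base -30 to -25 before the start site, in Ncapg2 from -18 to -13 and in Ncaph2 from -22 to -17. The Ncapd2 match lay farther out, from -123 to -118. Smc2 had 2 CHR matches, from -145 to -140 and from 27 to 32, and the second Ncapd3 start had one at the far edge of its window. An E2F match was found in 3 of the 8 promoters (Ncapd2, Ncapg and Ncapg2), against 2.26% of all promoters. It touched the start site in Ncapd2, from -8 to -1, and in Ncapg2, from 1 to 8. CCAAT was found in 3 of the 8 (Smc2, Ncapd2 and Ncapg), against 37.4%. The list of mitotic chromosome and condensin regulators taken up below had 27 promoters of 22 genes. Of these 27, 63.0% held a CHR match, 7.41% an E2F match and 70.4% CCAAT. Ncapd2 alone of the 7 genes held more than 1 CCAAT match, with 3. Neither Ncaph nor the first Ncapd3 start held any of the searched letters. A match is a string of letters and shows no binding.

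**Figure D1:**
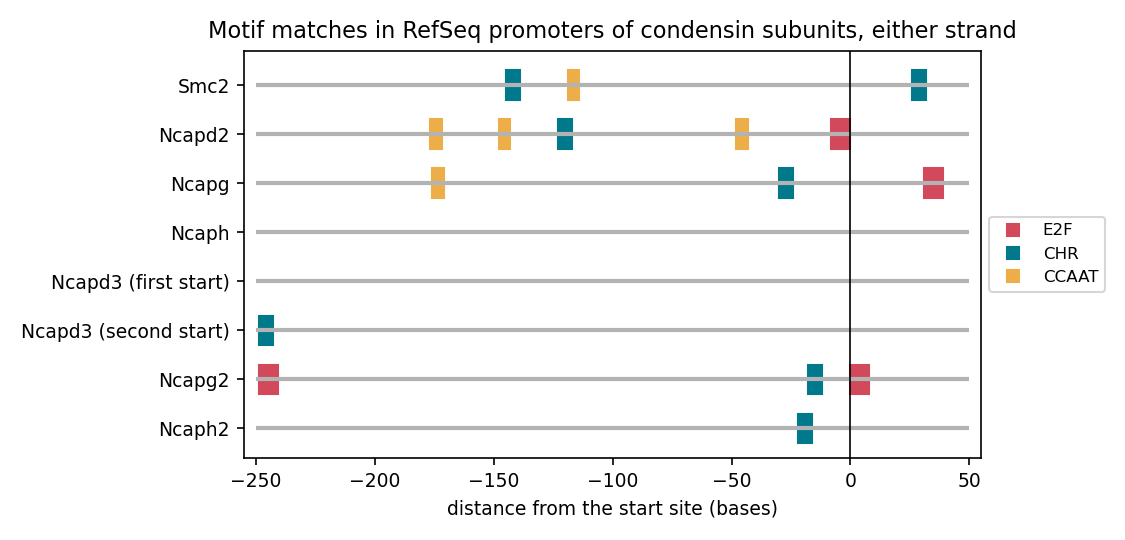
Motif matches along the 8 RefSeq promoters of 7 condensin subunits, with distance from the start site in bases on the horizontal axis and one line per promoter; coloured blocks are E2F, CHR and CCAAT matches on either strand. CHR blocks stand within 30 bases before the start site in Ncapg, Ncapg2 and Ncaph2, and the lines of Ncaph and the first Ncapd3 start are bare.

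All array values below are quantile-normalized intensities, which differ little from the deposited ones for these probes. Each probe has its own efficiency, so a higher intensity at one probe than at another does not show a higher transcript level. A value was called measured when it lay above a floor, the 95th percentile of 1580 probes for 1308 receptor and keratin-associated genes taken to be silent in lens. The floor was 44.5 for epithelium and 32.0 for fibers. Where only 1 tissue passed its floor, the brighter intensity was divided by the floor of the dimmer tissue and is written as "at least N-fold". All log2 ratios are fibers over epithelium, and each gene is shown by the probe with the highest sum over the arrays. With 1 array a tissue there was no replicate, no test and no SD between replicates. The only spread at hand came from 32 silent probes that passed both floors, whose log2 ratios ran from -2.31 to 2.36 with an SD of 0.84.

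Both tissues matched their labels by most markers. All 9 lens fiber markers with a probe passed 2-fold toward fibers. Of 6 lens epithelium markers 5 passed it toward epithelium, while Foxe3, a forkhead factor that defines this epithelium, read -2 and 0 and was below the floor on both arrays. Of 31 genes with a probe in 6 lists of other cell types, 9 were above a floor, against 33.9% of all genes.

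Mcph1 was far higher in epithelium than in fibers. Its brightest probe (ILMN_2674712) read 698.5 in epithelium and 47.5 in fibers. The fibers value was thus 6.80% of the epithelium value, a 14.7-fold difference with a log2 ratio of -3.88. That fibers value lay close to the floor, as 2.47% of the silent probes on that array were as bright or brighter. With the floor at the 99th percentile of the silent probes, only a log2 bound of -3.11 was left. A second probe (ILMN_2830445) read 565.5 in epithelium and 31.0 in fibers, just under the fibers floor, a difference of at least 17.7-fold. The 2 bright probes thus lay in the same direction and gave similar sizes. For scale, the brightest of the 1580 silent probes on the epithelium array read 454. In these bulk samples fewer cells of a type and less RNA per cell cannot be told apart.

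The remaining Mcph1 probes gave no signal above the floor. Probe ILMN_2636685 read 22 in epithelium and 1.0 in fibers, and ILMN_2752754 read 7.0 and 20. All 4 Mcph1 probes are annotated to the same RefSeq transcript, NM_173189, and where each lies in it was not used here. Such a split was common on this platform: of 66 genes with 4 or more probes and a brightest probe at 500 or more in epithelium, 71.2% also had at least 2 probes below the floor there, a comparison chosen after the Mcph1 values were seen. In the RefSeq table (GRCm38.p6) the coordinates of Mcph1 overlap those of Angpt2, which encodes an angiopoietin ligand. The 2 Angpt2 probes read at most 45.5 in epithelium and 38.0 in fibers, close to the floors.

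**Figure D2:**
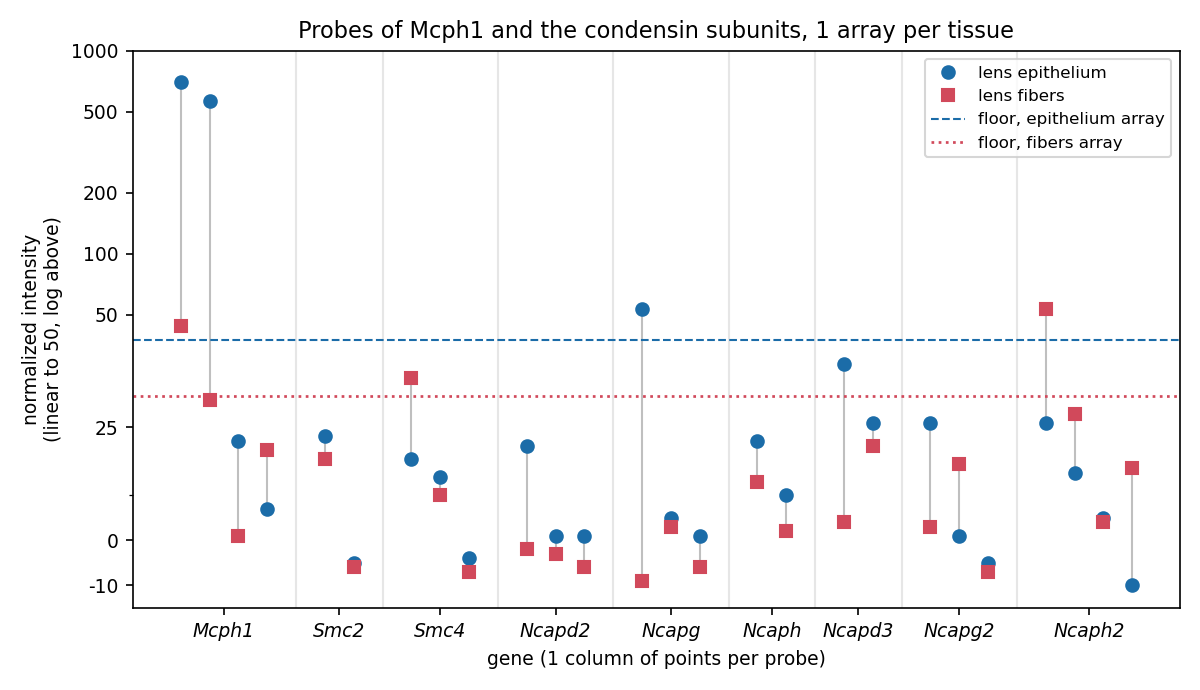
Normalized intensity of each of the 26 probes in lens epithelium (circles) and lens fibers (squares), 1 array each, grouped by gene; the vertical axis is linear to 50 and logarithmic above, and the horizontal lines are the floors of the arrays, 44.5 and 32.0. The 2 bright Mcph1 probes stand at 698.5 and 565.5 in epithelium, while 19 of the 22 condensin probes lie below the floor on both arrays.

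Among the 2986 genes above the floor on both arrays, the Mcph1 ratio was the second lowest, after Igfbp5, a secreted binding protein of insulin-like growth factors. With bounds included, Mcph1 ranked 8 of 5731 genes with a direction. The members were chosen with this contrast known, so these ranks describe the arrays only. The 3 genes whose brightest probe had the log2 intensities nearest to those of Mcph1 on the 2 arrays were Cdk2, Cdca7 and Clec2e. This likeness is one of probe brightness, not of transcript level, and rests on 2 arrays and 1 probe a gene. Cdk2, a cyclin-dependent kinase of S phase entry, read 608.75 in epithelium and 44.5 in fibers at its brightest probe. A second Cdk2 probe read 122 and 72.0, a much smaller difference in the same direction. Cdca7, which works with the remodeller Hells in DNA methylation, read 530.5 and 48.5, and the lectin-like receptor gene Clec2e 523.5 and 51.0, with a second Clec2e probe below the floor on both arrays.

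For none of the condensin subunits did these arrays give a ratio. Of their 22 probes, 1 was above the floor in epithelium and 2 in fibers, against 14.8% and 20.1% of all named probes. By construction about 5% of the silent probes exceed each floor. At gene level, 3 of the 8 condensin subunits were above a floor on at least 1 array (Ncapg, Ncaph2 and Smc4), a share near the 33.9% of all genes. None of the 8 was above the floor on both arrays. A probe below the floor is not evidence that the transcript is missing.

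The SMC core gave no direction. Smc2, the ATPase partner of Smc4, read 23.0 in epithelium and 18.0 in fibers at its brighter probe, below both floors, and its other probe read -5.0 and -6.0. Smc4 read 18.0 in epithelium and 36.0 in fibers at its brightest probe, which lies above the floor of the fibers array but below that of the epithelium array. The ratio of that value to the epithelium floor was under 1, so no direction was given. The other Smc4 probes read 14.0 and 10.0, and -4.0 and -7.0. The bright Smc4 probe and one of the others are annotated to RIKEN cDNA clones (AK049487 and AK010848), and the probe of the RefSeq transcript (NM_133786) was below both floors.

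Of the condensin I subunits, 1 of 3 was above a floor. Ncapg, a HEAT-repeat subunit, read 53.5 in epithelium and -9.0 in fibers at its brightest probe. It was at least 1.67-fold higher in epithelium (log2 bound -0.74), within the range of log2 ratios of the silent probes. On the epithelium array 3.67% of the silent probes were as bright or brighter. The other Ncapg probes read 5.0 and 3.0, and 1.0 and -6.0, below both floors. Ncapd2, the second HEAT-repeat subunit, had 3 probes that ran from 1.0 to 21.0 in epithelium and from -6.0 to -2.0 in fibers. Ncaph, the kleisin of condensin I, read 22 and 13.0 at its brighter probe and 10.0 and 2.0 at the other. No ratio was formed for Ncapd2 or Ncaph. The neighbour Lcorl, whose coordinates overlap Ncapg, stayed below both floors, at most 38.0 in epithelium and 31.0 in fibers over 4 probes.

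Condensin II, the complex that MCPH1 restrains, also had 1 of 3 subunits above a floor. Ncaph2, its kleisin, read 26.0 in epithelium and 53.5 in fibers at its brightest probe, at least 1.20-fold more in fibers (log2 bound 0.27). That direction was lost on scaling to housekeeping genes, and 2.03% of the silent probes were as bright or brighter on the fibers array. The other 3 Ncaph2 probes ran from -10 to 15.0 in epithelium and from 4.0 to 28.0 in fibers. All 4 Ncaph2 probes are annotated to a non-coding RefSeq transcript of the gene, NR_073376. Ncapd3, a HEAT-repeat subunit, read 26.0 and 21.0 at 1 probe and 39.0 and 4.0 at the other, the latter under the epithelium floor by a small margin. Ncapg2, the other HEAT-repeat subunit, read 26.0 and 3.0 at its brightest probe, and its remaining probes ran from -5.0 to 1.0 in epithelium and from -7.0 to 17.0 in fibers. Neither Ncapd3 nor Ncapg2 had a ratio.

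Over the whole group, 1 of 4 measured members (Mcph1) stood at 2-fold or more in favour of epithelium and 0 of 4 in favour of fibers. Over all 6451 measured genes these shares were 19.0% and 15.6%. Counted by probe, 2 of 5 measured member probes, both of Mcph1, reached 2-fold in epithelium and 0 of 5 in fibers, against 18.1% and 14.9% of all measured named probes. Scaled to housekeeping genes, the 2-fold counts over all genes were 3387 for epithelium and 115 for fibers, against 1225 and 1007 in the quantile-normalized values. The median log2 ratio of the 3 members with a direction was -0.74, against -0.01 over all genes with one, and it falls on the bound of Ncapg. Since 5 of the 9 members were below both floors, this median does not describe the group.

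**Figure D3:**
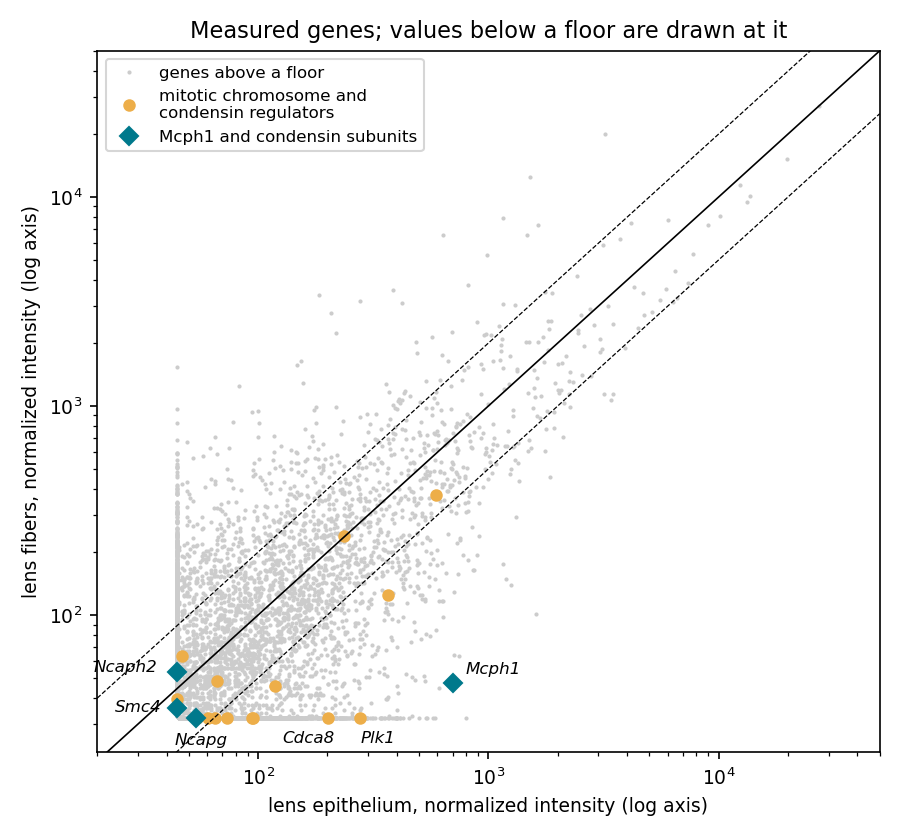
Normalized intensity in lens epithelium (horizontal, log axis) and lens fibers (vertical, log axis) of the 6451 genes above a floor, with values below a floor drawn at it; the solid line is equality and the dashed lines 2-fold. Mcph1 (698.5 and 47.5) lies apart at the lower right, whereas Ncapg, Ncaph2 and Smc4 lie at the floors in the lower left corner.

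Genes that drive or accompany chromosome compaction in mitosis lay mostly on the epithelium side. This list and those that follow were chosen with earlier results of these data known. Of 25 genes, 22 had a probe and 15 were measured, against 33.9% of all genes. Of these 15, 8 passed 2-fold toward epithelium and 0 toward fibers, against 19.0% and 15.6% of all measured genes. The median log2 ratio was -1.11 against -0.01 over all genes. That list median was -2.51 when scaled to housekeeping genes, -0.50 with no floor and -0.25 with the second brightest probe. With the higher of the 2 floors used for both arrays it was -0.69, and 6 genes passed 2-fold toward epithelium. For 8 of the 15 the value was a bound that could only favour the epithelium. Plk1, a mitotic kinase that phosphorylates condensin II, read 277 in epithelium and 2.0 in fibers, a difference of at least 8.66-fold. Cdca8 (borealin), which belongs to the chromosomal passenger complex with Aurora B, read 200.5 and 21.0, at least 6.27-fold higher. A second Cdca8 probe was below both floors. The epithelium value of the spindle kinase Aurka was at least 2.97-fold the fibers value, and Rcc1, which loads Ran with GTP on chromatin, read 368 and 124, a 2.97-fold difference. Top2a, the topoisomerase that works beside condensin on mitotic chromosomes, was below both floors at 14.0 and -6.0.

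Cohesin and the SMC5/6 complex, the other SMC complexes of the cell, had no common direction. All 19 genes had a probe and 12 were measured, against 33.9% of all genes. In each tissue 1 was higher by 2-fold or more, against 19.0% of all measured genes in epithelium and 15.6% in fibers. The median log2 ratio was 0.12. It was -1.85 when scaled to housekeeping genes, -0.42 with the 99th percentile floor, -0.26 with the second brightest probe and -0.42 with the mean of all probes. Rad21, the cohesin kleisin, read 522.5 in epithelium and 160 in fibers, 3.27-fold higher in epithelium. The cohesin core genes Smc3 (423.25 and 318.5) and Smc1a (123 and 91.0) had smaller log2 ratios of -0.41 and -0.43. Each rests on 1 probe, as none of the other Smc3 and Smc1a probes was above a floor. Nsmce2, a SUMO ligase of the SMC5/6 complex, read 77.5 and 218.5 and was 2.82-fold higher in fibers. Scaled to housekeeping genes, its log2 ratio was 0.10. A second Nsmce2 probe was above the floor in fibers only, with a bound of 0.89.

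The other genes of primary microcephaly, many of which encode centrosome proteins, were measured in part. Of 20 genes, 19 had a probe and 8 were above a floor on at least 1 array, a share near the 33.9% of all genes. Of these 8, 2 passed 2-fold toward epithelium and 0 toward fibers, against 19.0% and 15.6% of all measured genes. The median log2 ratio of -0.77 had no stable sign, at 0.80 with the 99th percentile floor, 0.03 with no floor and 0.22 with the second brightest probe. The centriole genes Cep135 and Cep152 read 75.0 and 64.0 in epithelium, at least 2.34-fold and at least 2-fold above fibers. A second Cep135 probe was below both floors. With the higher of the 2 floors used for both arrays, no gene of this list reached 2-fold. Copb2, of the COPI vesicle coat, read 100 and 193 (log2 ratio 0.95), and Ankle2, of the nuclear envelope, 146 and 274 (0.91). Scaled to housekeeping genes, these became -0.46 and -0.51. A second Ankle2 probe read 97.0 and 201.5, and its remaining probes were below both floors.

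Genes of the DNA damage response and E2F factors, to which MCPH1 has been linked, gave 6 measured members of 19 with a probe. This share was near the 33.9% of all genes. Of these 6, 1 passed 2-fold toward epithelium and 1 toward fibers, against 19.0% and 15.6% of all measured genes. E2f1, a transcription factor of S phase entry, read 78.0 in epithelium and 29.0 in fibers, at least 2.44-fold lower in the latter. With the higher of the 2 floors used for both arrays, its log2 bound was -0.81. With the 99th percentile floor E2f1 was not measured. E2f2, the other E2F gene of the list, read 90.0 and 100 at its brightest probe (log2 ratio 0.15). Smarcc1, a core subunit of SWI/SNF remodellers, was at least 2.40-fold higher in fibers at 107, with no direction when scaled to housekeeping genes. Topbp1, a checkpoint activator, had a bound of -0.66, and Trp53bp1, a repair factor at broken ends, a log2 ratio of 0.52 that was -0.89 when scaled to housekeeping genes. The other probes of Topbp1 and Trp53bp1 were below both floors. The list median was 0.15, but -1.67 when scaled to housekeeping genes, -0.06 with no floor and -0.40 with the second brightest probe.

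**Figure D4:**
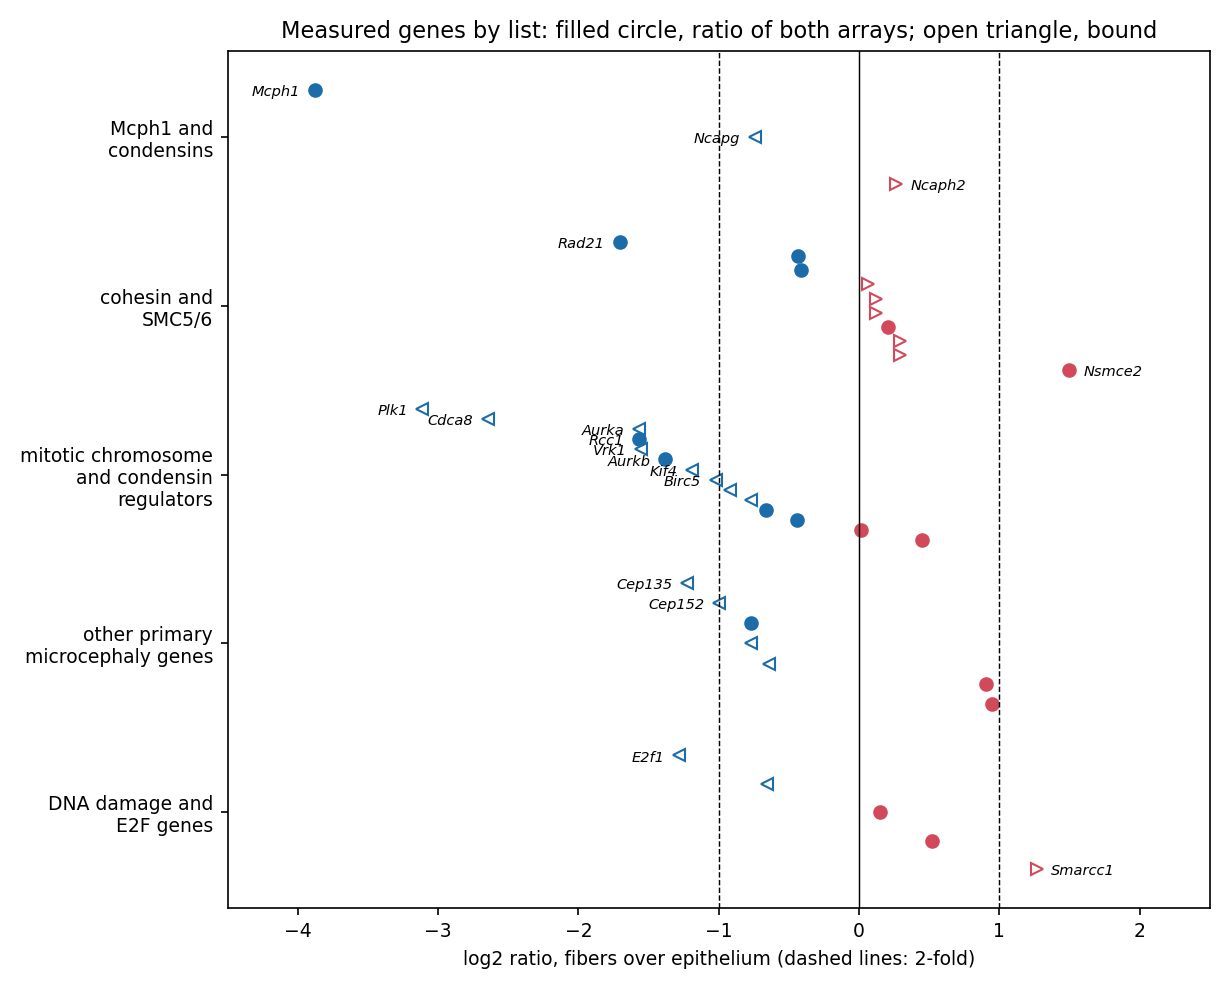
Log2 ratio of fibers over epithelium (horizontal axis) for the measured genes with a direction in 5 lists (rows); filled circles are genes above the floor on both arrays, open triangles are bounds, and dashed lines mark 2-fold. In the mitotic chromosome list 12 of 14 points lie on the epithelium side, while only Mcph1 of its own row passes 2-fold; scaled to housekeeping genes, every list moves toward epithelium.

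Of the genes listed as markers of other cell types, 2 passed 2-fold in the direction of Mcph1, and 0 passed it toward fibers. The 2 were Tfap2b (208.5 and 36.0) and Sfrp2 (1256 and 139.5). Whether the lens epithelium itself expresses these 2 genes was not tested. The macrophage marker Aif1 (54.5 and 34.0, log2 ratio -0.68) and the pigment cell marker Pmel (56.0 and 11.0, log2 bound -0.81) lay on the same side with smaller differences. Toward fibers lay the endothelial marker Tek (7.0 and 83.5, log2 bound 0.91) and the erythroid marker Hba-a1 (15.0 and 76.5, log2 bound 0.78). The pigment cell marker Mitf (64.0 and 76.5, log2 ratio 0.26) and the erythroid marker Hbb-y (121.5 and 124, log2 ratio 0.03) were also on that side. The macrophage marker Csf1r had no direction. Tfap2b and Sfrp2 each were the only measured gene of their list, periocular mesenchyme with 6 genes on the array and retina with 4. The summed intensity of the mesenchyme list was 260.5 in epithelium and 64.0 in fibers, and that of the retina list 1258 and 142.5. Most of each sum was the value of Tfap2b or Sfrp2 itself, so the sums add little to those values. Rax, Six6 and Lhx2 of the retina list and Foxc2 and Twist1 of the mesenchyme list read 9.0 or less on both arrays. The remaining mesenchyme genes with a probe were also below both floors, Col3a1 (21.0 and 2.0), Prrx1 (15.0 and 14.0) and Foxc1 (14.0 and 2.0). Fibers also held signal of some epithelium markers: Cdh1, E-cadherin, read there at 19.2% of its epithelium value, Pax6 at 35.4% and Pdgfra at 36.4%. The other measured markers of that list were below the fibers floor, Gja1 (399 and 15.0, log2 bound -3.64) and Tfap2a (82.5 and 17.0, log2 bound -1.37). Epithelium in turn held signal of fiber markers: of the 9 measured, 7 were above the floor on both arrays and 2 in fibers only. The brightest of them in epithelium were Mip (3206.5 and 19878), Cryba1 (986.5 and 5261.5) and Prox1 (631.5 and 1758.25). The part of other tissues or of carried-over cells in the Mcph1 difference was not tested.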

How the data were processed

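Expression was measured in 2 samples with 1 array each, lens epithelium and lens fibers, grouped by their titles. The intensities the authors deposited are whole numbers on a linear scale, down to -16 on each array, and 38.0% (epithelium) and 38.7% (fibers) are not above 0, so some background was already taken off. The method, and any scaling between arrays, is not given in the sources used.

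Quantile normalization was applied to the linear values (numpy 2.4.6, pandas 2.3.3, python 3.11.15), which hides a difference in total RNA. Probes were named through the platform annotation: 34885 had 1 gene symbol, 18 several and 10378 none. All 9 member gene IDs were found in the RefSeq table. Ratios and bounds used the floors given above. The functions were tested on simulated data, with known folds put into probes well above the floors. That test did not cover bounds or probes that are dim on both arrays. The number of arrays limits the precision, and no p-value was computed.

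The members and lists were chosen with earlier results of these data known. The genes named were all 9 members, up to 4 genes with the largest absolute log2 ratio from each related list, and the 3 genes nearest to Mcph1. Top2a, E2f2, Angpt2, Lcorl, Igfbp5 and the tissue markers were added once their values were known. The 8 alternatives run were values as deposited, housekeeping scaling, a lowess fit (statsmodels 0.14.6, span 0.3, offset of 50), a common floor, a 99th percentile floor, no floor, the second brightest probe and the mean of all probes. Probe sequences were not used here.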

Additional observations from a re-analysis of the deposited data

How the results depend on the processing

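Mcph1 was higher in epithelium by more than 2-fold under all 8 alternatives. Its log2 ratios or bounds ran from -2.94 (no floor, with an offset of 50, which shrinks ratios of dim values) to -5.28 (scaled to housekeeping genes). The housekeeping list itself was higher in fibers, with a median log2 ratio of 1.41 in the deposited values, and scaling to it moved the median of all genes with a direction from -0.01 to -1.93. With that scaling 2 members passed 2-fold toward epithelium, Mcph1 and Ncapg (log2 bound -2.16), and 2 members had no direction. With no floor the count was also 2, with Ncapg at -1.05. No alternative put a member at 2-fold or more in fibers. The median of the members with a direction was -3.72 when scaled to housekeeping genes, -3.11 with the 99th percentile floor, -4.14 with the second brightest probe and -3.34 with the mean of all probes, because the last 3 settings left only Mcph1 measured. Ncapg and Ncaph2 then had no value. Among the mitotic chromosome genes, 0 passed 2-fold toward fibers under any of the 8 alternatives, and the count toward epithelium, 8 above, was 14 when scaled to housekeeping genes, 5 with the mean of all probes, 3 with the 99th percentile floor and 0 with the second brightest probe, where 6 and 3 genes were measured. Over all genes, the 2-fold counts toward epithelium and fibers, 1225 and 1007 above, were 468 and 346 with the 99th percentile floor, 256 and 220 with the second brightest probe (9172 genes with more than 1 probe) and 765 and 666 with the mean of all probes. No paired analysis was possible because each tissue has 1 array. Signal over background limits what can be said of the condensin subunits: none was above the 99th percentile of the silent probes on either array.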
